A study of Homo sapiens with 27 samples.

Results

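The non-coding gene RMST gives rise to a circular RNA, circRMST, which the series text describes as a physical partner of the transcription factors SOX2 and NKX2-1 in small cell lung cancer. The genes described here are those whose RNA moved beyond every control library both after circRMST knockdown and after siRNA knockdown of SOX2 and NKX2-1, sorted by whether the 2 directions were opposite or the same. Members were chosen by the measured RNA levels themselves. Genes needed a mean of at least 50 normalised counts in each of the 2 deposited tables, and every knockdown library of a table had to lie beyond every control library of that table. This kept 1655 of 12347 genes, of 44661 human genes listed in either table. Opposite directions were found in 937 genes and the same direction in 718. Of the opposite-sign genes, 580 were higher after circRMST knockdown and lower with the siRNAs (called high-low, 4.7% of the 12347 genes) and 357 were lower after circRMST knockdown and higher with the siRNAs (low-high, 2.89%). The same-sign genes were 444 high-high (3.6%) and 274 low-low (2.22%).

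All cells were SHP77, a human line of small cell lung cancer. The circRMST knockdown carried shRNA 1 (2 libraries) or shRNA 2 (2 libraries), against an shRNA to GFP (shGFP, 2 libraries), and puromycin (3 µg/ml, 3 days or more) had been used to select all of these cells. SOX2 siRNA 1 and 2 (2 libraries each) and NKX2-1 siRNA 1 and 2 (2 libraries each) were compared with si-control (3 libraries), all collected 72 hours after transfection with RNAiMAX. The shRNA table came from total RNA and the siRNA table from poly(A) RNA, so a level is compared here only within a table. The values that chose the genes are given as descriptions with no test. Tests were kept for differences that the choice did not use, namely SOX2 siRNAs minus NKX2-1 siRNAs and circRMST shRNA 1 minus shRNA 2. In bulk RNA, fewer cells of a type and less RNA per cell cannot be told apart.

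Circular RNAs form when a downstream splice donor joins an upstream acceptor, and many are thought to act by holding proteins. SOX2 is an HMG-box transcription factor of stem and neural progenitor cells that is often amplified or highly expressed in small cell lung cancer. NKX2-1 is a homeobox factor that specifies lung and thyroid epithelium and is expressed in many small cell lung cancers. The classes address whether genes moved the same way after loss of circRMST and after loss of its reported partners.

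Depth was 46.9 to 57.4 megareads in the shRNA table and 15.5 to 50.1 megareads in the siRNA table. The mitochondrial ribosomal RNA MT-RNR2 made up 40.5 and 41.1% of the shGFP libraries and 41.7 to 45.4% of the circRMST libraries. Its share in the siRNA table was 0.413 to 0.780%. All 8 markers of the line's identity, among them INSM1, CHGA, SYP, NCAM1, GRP, NKX2-1 and SOX2, had at least 389 normalised counts in every library, while NEUROD1, POU2F3 and YAP1, markers of the other subtypes, reached at most 2.25 outside the shGFP libraries. The shGFP libraries held low-level reads of genes that were otherwise silent. These were counted in 1548 protein-coding genes with no read in any siRNA library and a read in some shRNA library. Of those genes, 14.7 to 20.5% had a read in the circRMST knockdown libraries, against 82.4 and 85.6% in the shGFP libraries. In 99% of those genes the shGFP mean exceeded the circRMST mean by no more than 38.7 normalised counts. The shGFP excess was no larger than this in 8 of the 357 low-high genes and 7 of the 274 low-low genes, and in 0 of the high-low and high-high genes. The part of those reads in a gene's value was not tested. RN7SL reads made up 0.379 to 0.467% of the circRMST libraries and 0.180 to 0.186% of the shGFP libraries.

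The targeted genes were read first. SOX2 (ENSG00000181449.3, chromosome 3, 181711925 to 181714436, hg38) had 396, 389, 466 and 439 normalised counts in the SOX2 siRNA libraries, against 1191, 1152 and 1084 in si-control. The NKX2-1 siRNA libraries held 2285, 2242, 2098 and 2252, above si-control. NKX2-1 (ENSG00000136352.17, chromosome 14, 36516397 to 36520232) had 959, 1070.0, 836 and 796 with its own siRNAs and 2764, 2446, 2608 and 2531 with the SOX2 siRNAs, against 2199, 2357 and 2145 in si-control. The 8 siRNA libraries thus lay on both sides of si-control for each gene, and neither gene was a member. After circRMST knockdown, SOX2 had 2236, 2408, 2639 and 2723 counts, against 1997 and 2229 in shGFP, and NKX2-1 had 881, 1005, 1385 and 1166, against 1419 and 1485. RMST (ENSG00000255794.6, chromosome 12, 97462804 to 97565035) had 289, 262, 234 and 285 counts after circRMST knockdown and 275 and 304 in shGFP. This entry counts reads of the whole gene, linear and circular, so it does not check the knockdown of the circle. Wherever values of a library group are listed, the order is replicates 1 and 2 of the first reagent and then of the second.

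Opposite directions made up 7.59% of the 12347 genes and the same direction 5.82%. Taken by themselves, 37.4% of genes lay above shGFP in every circRMST library and 25.9% below, while 9.83% lay above si-control in all 8 siRNA libraries and 10.1% below. The rule used these contrasts, so the shares are a description. Of the 1251 genes below si-control, 46.4% were above shGFP after circRMST knockdown and 21.9% below. Of the 1214 genes above si-control, 36.6% were above shGFP and 29.4% below. The median high-low gene had a log2 fold change of 0.60 after circRMST knockdown and -0.41 with the siRNAs, and the median low-high gene had -0.51 and 0.36. Medians were 0.39 and 0.32 for high-high genes and -0.65 and -0.50 for low-low genes, against 0.08 and -0.01 over all 12347 genes. A change of at least 2-fold in both tables was seen in 21 high-low, 9 low-high, 3 high-high and 14 low-low genes.

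The balance of the 2 opposite classes moved with how the libraries were scaled. Scaling each library to the same total, in place of the authors' size factors, gave 374 high-low and 658 low-high genes, and quantile normalization gave 487 and 470. High-low genes stayed well ahead under TMM scaling, with 575 and 360. Equal totals taken without mitochondrial and RN7SL genes gave 524 and 429. Equal totals lowered the median circRMST log2 fold change of all genes by 0.15. The changes given here keep the authors' size factors and are not corrected for that shift. Opposite-sign genes outnumbered same-sign genes under all 4 other scalings, with 935 to 1032 opposite and 648 to 762 same. All 16 opposite-sign genes and all 12 same-sign genes with the largest changes stayed in their class under all 4 scalings, as did 88 of the 114 members chosen for naming.

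**Figure D1:**
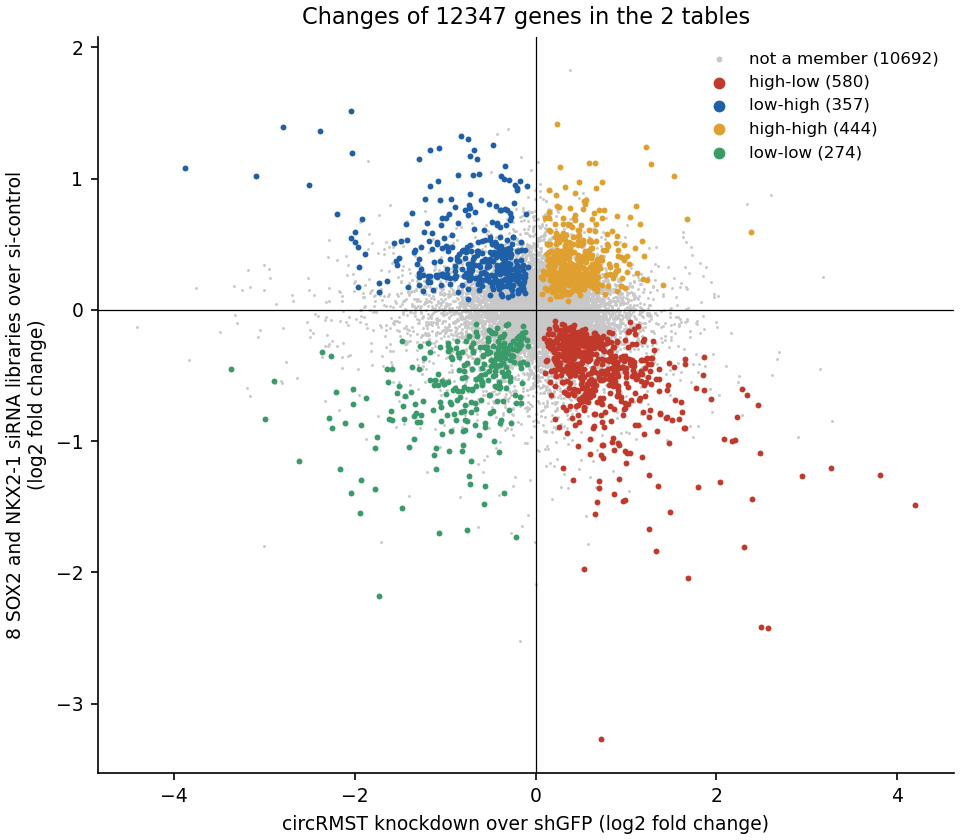
Log2 fold change of each of 12347 genes after circRMST knockdown over shGFP (horizontal axis) and with the 8 SOX2 and NKX2-1 siRNA libraries over si-control (vertical axis). Coloured points are the 580 high-low, 357 low-high, 444 high-high and 274 low-low genes, 1 class in each quadrant, and grey points are the genes of no class.

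Ranked by the smaller of their 2 absolute changes, the leading high-low genes were TNFRSF9, SCEL, FAM83A, CDC42EP1, PDE1C, BEST1, UMODL1 and VGF. TNFRSF9 (ENSG00000049249.8, chromosome 1, 7915871 to 7940839) encodes 4-1BB, a costimulatory receptor best known from activated T cells. It had 428, 361, 439 and 433 normalised counts after circRMST knockdown, against 63.7 and 74.0 in shGFP, a log2 fold change of 2.57 ± 0.14 SE. SOX2 siRNAs left 63.3, 66.5, 63.1 and 76.5 counts and NKX2-1 siRNAs 72.7, 85.5, 108 and 135, against 444, 439.9 and 433 in si-control, a log2 fold change of -2.42 ± 0.11 SE over the 8 libraries. All 4 circRMST libraries stood far above shGFP and all 8 siRNA libraries far below si-control. The T cell marker CD3E had at most 1.05 counts in the circRMST libraries, at most 3.08 in shGFP and 0 in every siRNA library. The 12 blood and endothelial markers summed to 168 to 215 counts after circRMST knockdown and 456 to 483 in shGFP, most of it PECAM1. In the siRNA table they summed to 99.8 to 174 with SOX2 siRNAs, 187 to 511 with NKX2-1 siRNAs and 385 to 407 in si-control, and their part in the TNFRSF9 values was not tested.

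SCEL (ENSG00000136155.16, chromosome 13, 77535706 to 77645263) encodes sciellin, a precursor of the cornified envelope of keratinocytes. Its counts were 1723, 1532, 946 and 869 after circRMST knockdown and 203 and 227 in shGFP. The siRNA table gave 131, 143, 168 and 172 with SOX2 siRNAs and 64.2, 87.9, 139.8 and 109 with NKX2-1 siRNAs, against 659, 667 and 630.0 in si-control. Every circRMST library was well above shGFP and every siRNA library well below si-control. PDE1C (ENSG00000154678.16, chromosome 7, 31616777 to 32428224), a calmodulin-dependent phosphodiesterase of cyclic nucleotides, was higher with shRNA 1 than with shRNA 2. It had 7729.7, 7983, 4196 and 4356 counts after circRMST knockdown, against 2099 and 2019 in shGFP. The same gene had 644, 728, 879 and 852 with SOX2 siRNAs and 624, 579, 497 and 499.8 with NKX2-1 siRNAs, against 1932, 1906 and 1837 in si-control.

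VGF (ENSG00000128564.6, chromosome 7, 101162509 to 101169952) encodes a secreted precursor of neuropeptides and is a marker of neuroendocrine cells. Its counts were 11379, 11930.3, 6523 and 5180.4 after circRMST knockdown and 1929.6 and 2906 in shGFP, with both shRNAs above both controls. In the siRNA table it had 42409, 35246, 31998 and 32953 with SOX2 siRNAs and 34157, 37405, 54239 and 54504 with NKX2-1 siRNAs, against 100933, 100111 and 101102 in si-control. BEST1 (ENSG00000167995.15, chromosome 11, 61949821 to 61965515), a calcium-activated chloride channel, had the highest circRMST log2 fold change of all 12347 genes, with 1294, 1354, 1182 and 1144 counts against 70.9 and 62.6 in shGFP and a log2 fold change of 4.20 ± 0.10 SE. Its siRNA values were 35.6, 29.6, 32.7 and 34.9 with SOX2 siRNAs and 72.7, 97.3, 108 and 102 with NKX2-1 siRNAs, against 142, 169 and 165 in si-control. The span of BEST1 overlaps that of FTH1, the ferritin heavy chain, in the RefSeq annotation, and reads of overlapping genes may not be told apart here.

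Among the others of this group, CDC42EP1, an effector of the GTPase CDC42, had log2 fold changes of 1.68 after circRMST knockdown and -2.05 with the siRNAs. UMODL1 had 2.39 and -1.44. FAM83A, a scaffold described in epidermal growth factor receptor signalling, had 264, 234, 85.5 and 80.6 counts after circRMST knockdown, against 21.6 and 37.0 in shGFP, so that its control level rests on few reads. In the siRNA table it had 39.9, 20.9, 65.4 and 53.7 with SOX2 siRNAs and 182, 183, 144 and 115 with NKX2-1 siRNAs, against 327, 252 and 272 in si-control.

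**Figure D2:**
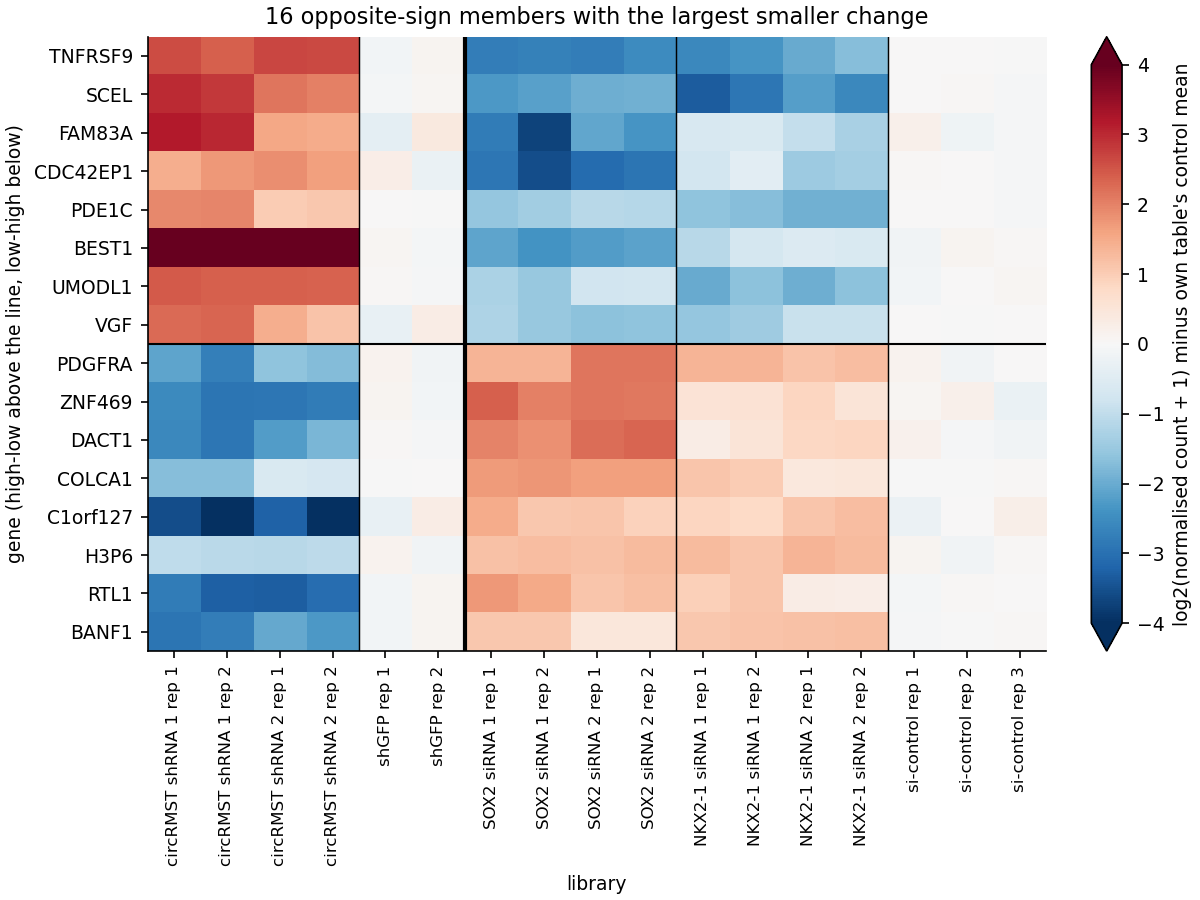
Log2(normalised count + 1) of each library minus the mean of its own table's controls, for the 8 high-low genes (top) and 8 low-high genes (bottom) with the largest smaller change. Columns are single libraries, knockdowns left of their controls in each table. The circRMST knockdown and the siRNA columns have opposite colours in all 16 genes, and the SOX2 columns are darker than the NKX2-1 columns for FAM83A, CDC42EP1, ZNF469 and DACT1.

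The leading low-high genes by the same ranking were PDGFRA, ZNF469, DACT1, COLCA1, C1orf127, H3P6, RTL1 and BANF1. PDGFRA (ENSG00000134853.11, chromosome 4, 54229293 to 54298245), a receptor tyrosine kinase for platelet-derived growth factor, had 64.9, 42.1, 93.7 and 84.7 counts after circRMST knockdown and 314 and 258 in shGFP, a log2 fold change of -2.04 ± 0.21 SE. With SOX2 siRNAs it had 142, 142, 241 and 244 and with NKX2-1 siRNAs 142, 142, 121 and 129.6, against 59.9, 48.7 and 55.0 in si-control, a log2 fold change of 1.52 ± 0.11 SE. As the rule required, no circRMST library reached a shGFP library and no siRNA library came down to si-control. PDGFRA also marks fibroblasts. The 12 fibroblast markers, PDGFRA among them, summed to 1019 to 1524 counts after circRMST knockdown (2 to 4 of 12 at 0) and 1233 to 1414 in shGFP (0 at 0). In the siRNA table they summed to 3118 to 3795 with SOX2 siRNAs, 2091 to 2226 with NKX2-1 siRNAs and 2608 to 2641 in si-control. The collagen COL1A1 had 0 to 16.6 counts after circRMST knockdown and 23.7 to 67.8 in shGFP, and DCN had 0 to 8.38 and 26.6 to 27.7. With SOX2 siRNAs COL1A1 had 16.3 to 36.2 counts, against 19.5 to 23.7 in si-control, and DCN had 0 to 1.34, against 0 to 1.41. LUM, another fibroblast marker, had 362 to 797 counts after circRMST knockdown and 97.8 to 121 in shGFP, and 186 to 254 with SOX2 siRNAs and 54.7 to 104 with NKX2-1 siRNAs, against 59.9 to 93.8 in si-control. FAP, also a fibroblast marker, had 513 to 601 counts after circRMST knockdown and 619 to 663 in shGFP. It had 47.7 to 82.5 with SOX2 siRNAs and 157 to 320 with NKX2-1 siRNAs, against 372 to 441 in si-control. FAP was low-low and left that class under TMM. COL6A3 had 3.70 to 16.3 with SOX2 siRNAs and 7.77 to 21.0 with NKX2-1 siRNAs, against 25.6 to 33.8. COL1A1 had 2.83 to 14.7 with NKX2-1 siRNAs. The part of other cells in the PDGFRA values was not tested. COL5A1 made up most of the siRNA sums, with 2531 to 3349 counts with SOX2 siRNAs, 1544 to 1758 with NKX2-1 siRNAs and 1969 to 2073 in si-control.

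BANF1 (ENSG00000175334.7, chromosome 11, 66002503 to 66004149), the barrier-to-autointegration factor that tethers DNA to the nuclear lamina, was low in every circRMST library. It had 312, 347, 566 and 479 counts after circRMST knockdown, against 2206 and 2514 in shGFP. The siRNA values were 4023, 4012, 2616 and 2629 with SOX2 siRNAs and 4077, 4257, 4277 and 4385 with NKX2-1 siRNAs, against 1846, 1916 and 1992 in si-control. SOX2 siRNA 2 gave the smallest of these increases and lay above all 3 controls, as the rule required. RTL1 (ENSG00000254656.1, chromosome 14, 100879753 to 100903722), an imprinted gene derived from a retrotransposon, had 339, 245, 238 and 285 counts after circRMST knockdown and 2179 and 2547 in shGFP. With SOX2 siRNAs it had 1211, 1033, 784 and 836 and with NKX2-1 siRNAs 698, 773, 438 and 431, against 341, 374 and 366 in si-control. Several microRNA genes lie within the span of RTL1, and which transcript gave the reads was not tested.

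DACT1 (ENSG00000165617.14, chromosome 14, 58634061 to 58648321), which binds Dishevelled and dampens Wnt signalling, had 61.8, 48.9, 79.0 and 103 counts after circRMST knockdown and 382 and 363 in shGFP. It had 447, 405, 532 and 569 with SOX2 siRNAs and 139.7, 162, 199.5 and 204 with NKX2-1 siRNAs, against 126, 109.7 and 103 in si-control. COLCA1, a non-coding gene that shares its locus with POU2AF3, had 1955, 1956, 4144 and 3988 counts after circRMST knockdown, against 6321 and 6349 in shGFP. Its siRNA values were 4356, 4477, 4132 and 4175 with SOX2 siRNAs and 2892, 2672, 1769.7 and 1822 with NKX2-1 siRNAs, against 1304, 1316 and 1364 in si-control. ZNF469, a zinc finger gene mutated in brittle cornea syndrome, had log2 fold changes of -2.79 after circRMST knockdown and 1.40 with the siRNAs. C1orf127 had -3.88 and 1.08, from 14.7, 5.87, 18.4 and 10.3 counts after circRMST knockdown, against 147 and 223 in shGFP. H3P6, a pseudogene of histone H3 whose reads may belong to its parent genes, had -1.07 and 1.23.

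Genes of the integrated stress response were the gene list with the most opposite-sign members. In this response, kinases that sense lack of amino acids or unfolded protein lead to translation of ATF4, which with its partners switches on genes for amino acid synthesis and uptake through amino acid response elements. Of 32 measured genes of the list, 16 were high-low and 0 belonged to another class. After circRMST knockdown, 27 of the 32 lay above shGFP in every library and 2 below, against 37.4% and 25.9% of all genes. The median log2 fold change was 0.74, against 0.08 over all genes. With the siRNAs, 16 lay below si-control in every library and 0 above, against 10.1% and 9.83% of all genes. The median was -0.37. Other scalings gave 13 to 15 high-low genes and 0 in the other classes.

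The 3 high-low genes of the list whose RefSeq promoter window holds the letters TGATGNAA, the core of the amino acid response element, are shown because the shared direction of these genes is the pattern the list turns on. Windows run from 250 bases before to 50 after the first listed RefSeq start, build GRCh38.p14, written 5′ to 3′ on the gene's strand, with the match to the core on either strand in capitals.
CHAC1 (chr15:40953221-40953520, plus strand): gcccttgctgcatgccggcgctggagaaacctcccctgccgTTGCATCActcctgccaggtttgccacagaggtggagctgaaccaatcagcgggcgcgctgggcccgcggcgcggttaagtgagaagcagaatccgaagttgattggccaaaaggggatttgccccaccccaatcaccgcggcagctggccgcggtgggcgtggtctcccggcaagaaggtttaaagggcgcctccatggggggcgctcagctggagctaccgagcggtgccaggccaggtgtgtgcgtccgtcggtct
ATF3 (chr1:212565157-212565456, plus strand): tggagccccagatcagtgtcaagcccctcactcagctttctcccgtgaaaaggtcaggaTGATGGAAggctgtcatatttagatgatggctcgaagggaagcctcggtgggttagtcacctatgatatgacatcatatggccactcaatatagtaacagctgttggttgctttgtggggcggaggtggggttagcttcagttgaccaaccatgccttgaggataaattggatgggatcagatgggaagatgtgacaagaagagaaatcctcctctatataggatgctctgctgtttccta
ASNS (chr7:97872359-97872658, minus strand): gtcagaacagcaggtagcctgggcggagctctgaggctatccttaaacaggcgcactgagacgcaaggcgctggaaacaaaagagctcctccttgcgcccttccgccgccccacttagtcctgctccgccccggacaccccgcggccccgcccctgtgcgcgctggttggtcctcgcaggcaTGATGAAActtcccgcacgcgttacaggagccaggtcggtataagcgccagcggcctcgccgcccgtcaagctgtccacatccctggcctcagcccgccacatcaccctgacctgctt
The match began 68 bases before the start in ASNS, 209 bases before it in CHAC1, on the opposite strand, and 191 bases before it in ATF3. Windows were found for 12 of the 16 high-low genes, 3 of which held the core (25%), and for 13 of the other 16 genes of the list, 1 of which held it (7.69%). Over all 9694 genes with a window the share was 1.63%. A match describes the letters in the window and does not show that a factor binds there.

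CHAC1 (ENSG00000128965.11, chromosome 15, 40953471 to 40956512), an enzyme that degrades glutathione, had 653, 486, 698 and 695 counts after circRMST knockdown and 268 and 302 in shGFP. The SOX2 siRNA libraries held 745, 737, 673 and 821 and the NKX2-1 siRNA libraries 669, 800.1, 832 and 823, against 1379, 1316 and 1495 in si-control. The lowest circRMST library was well above both shGFP libraries, and the highest siRNA library well below the lowest control. ASNS, which makes asparagine, averaged 8359 ± 508 counts after circRMST knockdown (SD, n = 4) and 6019 ± 439.8 in shGFP (n = 2). It averaged 3562 ± 251 with SOX2 siRNAs and 6259 ± 180.0 with NKX2-1 siRNAs (n = 4 each), against 7791 ± 83.7 in si-control (n = 3). The transcription factor ATF3 averaged 472 ± 41.3 after circRMST knockdown and 311 ± 44.7 in shGFP, and 409.6 ± 66.9 with SOX2 siRNAs and 449 ± 36.6 with NKX2-1 siRNAs, against 842 ± 22.3 in si-control.

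GDF15 (ENSG00000130513.6, chromosome 19, 18386158 to 18389176), a secreted cytokine of stressed cells, had the largest change of the list's 16 members in each table. It had 2002, 1653, 836 and 727 counts after circRMST knockdown and 234 and 192 in shGFP, a log2 fold change of 2.48 ± 0.10 SE. The SOX2 siRNA libraries had 2161, 1803, 2275 and 2370.3 counts and the NKX2-1 siRNA libraries 2121, 2433, 2856 and 2877, against 4982, 4887 and 5049 in si-control, a log2 fold change of -1.09 ± 0.04 SE. DDIT4, an inhibitor of the growth kinase complex mTORC1, had 419, 451, 482 and 497 counts after circRMST knockdown and 224 and 217 in shGFP, and 239, 222, 302 and 243 with SOX2 siRNAs and 378, 370.4, 292 and 311 with NKX2-1 siRNAs, against 495, 457 and 451 in si-control. ATF4 RNA itself was higher after circRMST knockdown (log2 fold change 0.38) and lower with the siRNAs (-0.27).

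Enzymes among the other high-low genes of the list were CTH of cysteine synthesis (log2 fold changes of 1.55 after circRMST knockdown and -0.69 with the siRNAs), PCK2 (1.21 and -0.66), ALDH1L2 (1.08 and -0.46) and PYCR1 of proline synthesis (0.94 and -0.36). The amino acid transporters SLC7A11 (0.41 and -0.40) and SLC1A5 (0.64 and -0.45) were in the class too. The remaining 5 were SESN2 (1.86 and -0.36), VEGFA (1.11 and -0.52), STC2 (0.52 and -0.54), TRIB3 (0.79 and -0.22) and ATF4. Of the genes outside the classes, DDIT3, which encodes CHOP, had 2.17 and -0.17, and NUPR1 had 2.67 and -0.38, with siRNA libraries that overlapped si-control.

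The siRNAs to SOX2 and to NKX2-1 were not equal in this list. Between SOX2 and NKX2-1 siRNAs, which the choice of genes did not compare, limma with Benjamini-Hochberg adjustment over all genes called 22 of the 32 genes lower with SOX2 siRNAs and 1 higher, against 30.3% lower and 34% higher among the 12347 genes. Other scalings and tools gave 22 to 25 lower. Of the 16 high-low genes, 12 were lower with SOX2 siRNAs and 0 higher. These genes were chosen as below si-control with both sets, so a set with larger changes will tend to lie lower among them. The difference was -0.82 ± 0.03 SE on the log2 scale for ASNS (limma adjusted p = 7.06e-18) and -0.87 ± 0.04 SE for PCK2 (limma adjusted p = 7.52e-16). CHAC1 had -0.07 ± 0.06 SE (limma adjusted p = 0.358) and did not pass. Between circRMST shRNA 1 and shRNA 2, 6 of the 32 genes were higher with shRNA 1 and 4 lower, against 15.6% higher and 11.1% lower among the 12347 genes. GDF15 differed by 1.22 ± 0.12 SE (limma adjusted p = 7.64e-08).

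**Figure D3:**
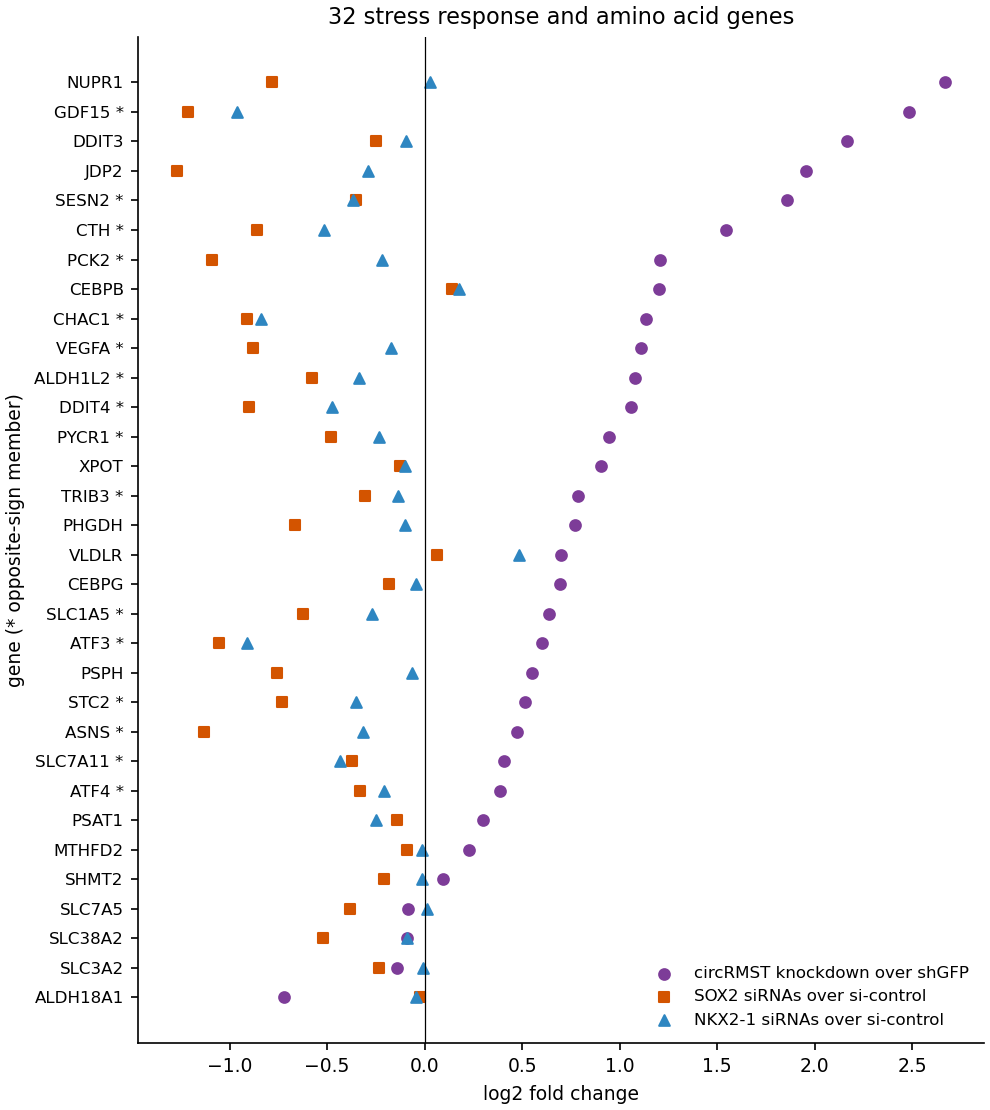
Log2 fold changes of 32 genes of the integrated stress response and amino acid list after circRMST knockdown over shGFP (circles), with SOX2 siRNAs over si-control (squares) and with NKX2-1 siRNAs over si-control (triangles). Genes are ordered by the circRMST change and the 16 high-low genes carry an asterisk. Circles lie right of 0 for most genes while squares lie left, and triangles lie between 0 and the squares for ASNS, PCK2 and VEGFA.

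Lists next to this response shared part of the pattern. Of 20 cytosolic aminoacyl-tRNA synthetases, the enzymes that charge tRNAs, 6 were high-low (YARS1, SARS1, IARS1, CARS1, WARS1 and AARS1), 2 high-high and 1 low-low. Opposite-sign genes were 30% of this list, against 7.59% of all 12347 genes. SARS1 had 15514, 16338, 11419.7 and 10926 counts after circRMST knockdown and 6112 and 6469 in shGFP, and 5299, 5284, 4750.5 and 4934 with SOX2 siRNAs and 5182, 5130.0, 5059.9 and 5128 with NKX2-1 siRNAs, against 6705, 6667 and 6754 in si-control. All 4 circRMST libraries were above shGFP and all 8 siRNA libraries below si-control, as in every high-low gene. VARS1 and MARS1 were high-high, with siRNA log2 fold changes of 0.32 and 0.18, so the list did not move as 1 group with the siRNAs. The span of MARS1 overlaps that of DDIT3.

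Of 20 genes of the unfolded protein response and protein folding in the endoplasmic reticulum, 4 were high-low, 2 high-high and 1 low-low. The opposite-sign share was 20%, against 7.59% of all 12347 genes. The disulfide isomerase PDIA3 (log2 fold changes of 0.97 after circRMST knockdown and -0.35 with the siRNAs), the chaperone CANX (0.87 and -0.28), DNAJB9 (0.49 and -0.51) and HSPA5, the chaperone BiP (0.85 and -0.28), were high-low. PDIA4 was high-high (0.64 and 0.74), and XBP1, a transcription factor of this response, was low-low (-0.80 and -0.46). PDIA3 left the high-low class and XBP1 the low-low class when libraries were scaled to equal totals, and quantile normalization also removed PDIA3. Quantile normalization left 2 high-low genes in this list and equal totals left 3.

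Of 19 genes of hypoxia and glycolysis, 6 were high-low, 1 high-high and 2 low-low. The opposite-sign share was 31.6%, against 7.59% of all 12347 genes. P4HA1, which hydroxylates collagen prolines, had 909, 882, 800.3 and 873 counts after circRMST knockdown and 718 and 594 in shGFP, and 233, 299, 298 and 339.6 with SOX2 siRNAs and 398, 364, 589.5 and 589.9 with NKX2-1 siRNAs, against 669, 671 and 627 in si-control. BNIP3, EGLN3, ENO1, PGK1 and PFKL were the other 5, with siRNA log2 fold changes of -0.31 to -0.15. NDRG1 and HK2, known targets of hypoxia signalling, were low-low instead, with NDRG1 at -2.10 after circRMST knockdown and -0.86 with the siRNAs. Equal library totals left 2 high-low genes in this list and the other scalings 5 or 6.

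**Figure D4:**
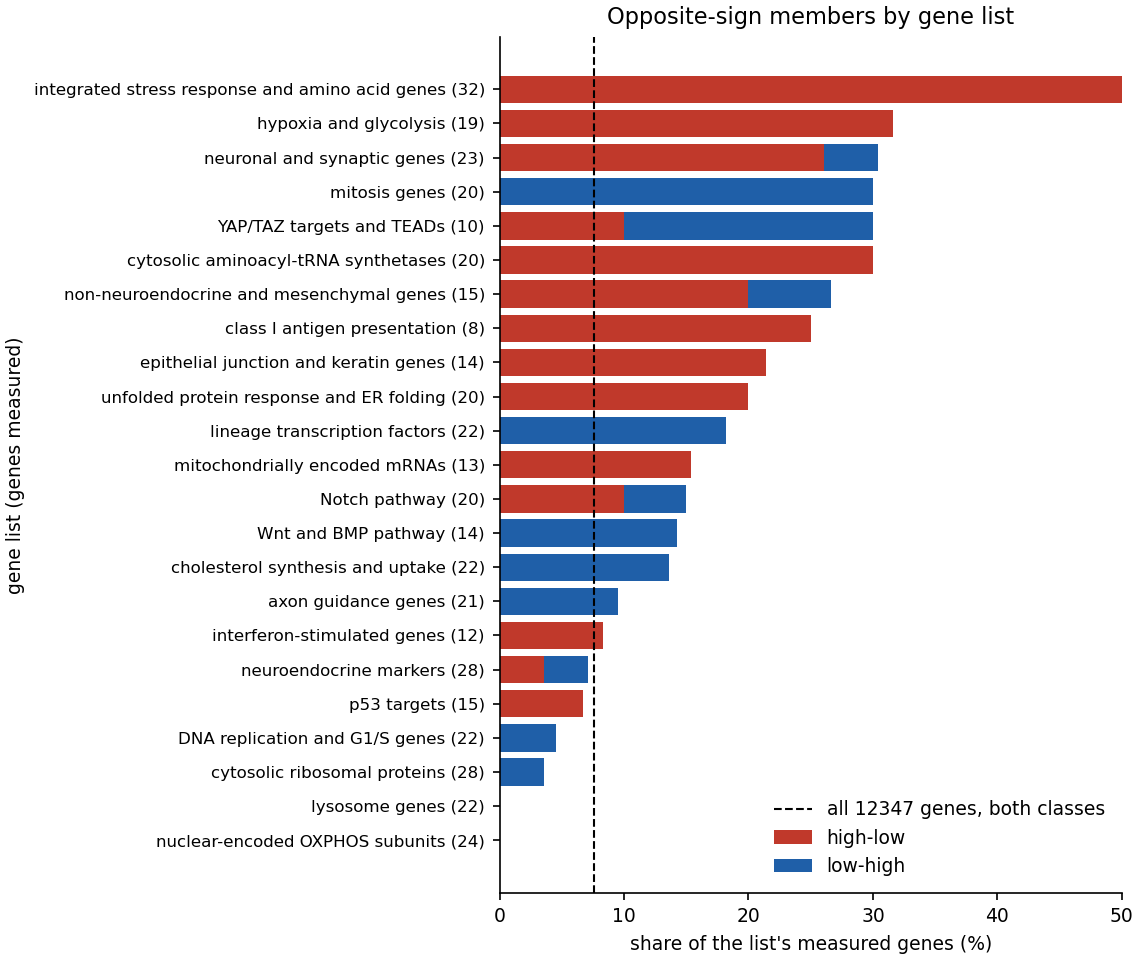
Share of each gene list's measured genes that were high-low (red) or low-high (blue), for lists with at least 8 genes measured, with that number in brackets. The dashed line marks the 7.59% of all 12347 genes with opposite directions. The stress response list reaches 50%, all of it high-low, mitosis genes reach 30%, all of it low-high, and oxidative phosphorylation and lysosome genes reach 0.

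Genes of mitosis had the pattern turned round. Of 20 measured, 6 were low-high (FOXM1, KIF11, BUB1B, CDK1, CCNB1 and TOP2A), 2 high-high (CDC20 and UBE2C) and 0 high-low. With the siRNAs, 12 of the 20 lay above si-control in every library and 0 below, against 9.83% and 10.1% of the 12347 genes. After circRMST knockdown 10 lay below shGFP and 4 above, against 25.9% and 37.4% of the 12347 genes. FOXM1 (ENSG00000111206.12, chromosome 12, 2857680 to 2877174), the transcription factor of the G2 and M phase genes, had 617, 623, 816 and 817 counts after circRMST knockdown and 1796 and 1828 in shGFP. Its values were 1624, 1497, 1292 and 1365 with SOX2 siRNAs and 1316, 1429.8, 1076 and 1086 with NKX2-1 siRNAs, against 959.7, 1003 and 956 in si-control. Other scalings gave 7 to 9 low-high genes in this list.

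BUB1B, a kinase of the spindle checkpoint, had 3962, 4054, 3883 and 3778 counts after circRMST knockdown and 6521 and 6489 in shGFP, and 2991, 2850.2, 3009 and 3115 with SOX2 siRNAs and 2631, 2567, 2581 and 2529 with NKX2-1 siRNAs, against 2295, 2276 and 2102 in si-control. KIF11, the motor that separates spindle poles, had 5709, 6031, 5829 and 6145 counts after circRMST knockdown and 7954 and 7535 in shGFP, and 3231, 3354, 3139 and 2966 with SOX2 siRNAs and 2997, 2683, 2866 and 2721 with NKX2-1 siRNAs, against 2224, 2175 and 2104 in si-control. In both genes the 4 circRMST libraries were close together, and no library of a knockdown overlapped its controls, as the rule required. SOX2 siRNAs gave higher levels than NKX2-1 siRNAs in 19 of the 20 mitosis genes and lower levels in 0 (limma adjusted p under 0.05, 17 or 18 under other scalings and tools). Of the 12347 genes, 34% were higher and 30.3% lower. All 6 low-high genes were among the 19. They were chosen as above si-control with both sets, so a set with larger changes will tend to lie higher among them. The difference was 0.32 ± 0.03 SE for CCNB1 (limma adjusted p = 4.38e-10) and 0.24 ± 0.04 SE for FOXM1 (limma adjusted p = 4.73e-05). Genes of DNA replication and the G1/S step gave 1 low-high (RFC3) and 3 high-high genes of 22, an opposite-sign share of 4.55%, against 7.59% of all genes. Equal library totals gave 4 low-high and 2 high-high genes there, and RFC3 left its class under quantile normalization.

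Transcription factors of the lineage gave 4 low-high, 2 high-high, 1 low-low and 0 high-low genes of 22. The opposite-sign share was 18.2%, against 7.59% of all 12347 genes. INSM1 (ENSG00000173404.4, chromosome 20, 20368104 to 20370949), a zinc finger factor of neuroendocrine differentiation, had 1860.2, 1919.8, 2597 and 2578 counts after circRMST knockdown and 5159 and 6024 in shGFP. Its siRNA values were 20016, 16836, 18254 and 18233 with SOX2 siRNAs and 17537, 19049, 17292 and 18158 with NKX2-1 siRNAs, against 13169.5, 12934 and 13507 in si-control. NKX2-2, a homeobox factor of neuroendocrine and neural progenitor cells, had 212, 207, 187 and 232 counts after circRMST knockdown and 459 and 486 in shGFP, and 211, 191, 227 and 258 with SOX2 siRNAs and 157, 158, 165 and 170.3 with NKX2-1 siRNAs, against 94.8, 89.0 and 111 in si-control. Both genes were at less than their shGFP levels in every circRMST library and above si-control in every siRNA library, as in every low-high gene. ID2, an inhibitor of basic helix-loop-helix factors, had -1.95 and 0.33, and TCF4, a partner of such factors, had -0.41 and 0.48. MYCL was low-low, with -2.28 and -0.82.

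Signalling genes appeared in both opposite classes. BMP2 (ENSG00000125845.6, chromosome 20, 6767686 to 6780246), a secreted ligand of bone morphogenetic protein receptors, was low-high, with 856, 961, 629 and 588 counts after circRMST knockdown and 1634 and 1841 in shGFP. It had 2539.5, 2317, 2539.9 and 2615 with SOX2 siRNAs and 1154, 1199, 1262 and 1291 with NKX2-1 siRNAs, against 977, 1014 and 932 in si-control. LEF1, a nuclear effector of Wnt signalling, was low-high too (-0.41 and 0.43), while the Wnt receptor FZD3 was low-low (-0.59 and -0.57). In the Notch pathway the target genes HEY2 (0.98 and -0.75) and HES1 (0.87 and -0.44) were high-low, RBPJ, the factor through which Notch acts on DNA, was low-high (-0.22 and 0.95), and NRARP, another target, was low-low (-0.46 after circRMST knockdown). JAG1, a Notch ligand, was high-high and left that class under equal library totals and quantile normalization. The ephrin receptors EPHB2 (-1.42 and 0.54) and EPHA4 (-0.81 and 0.45) were the 2 low-high genes of 21 in axon guidance. Opposite-sign shares were 14.3% of the Wnt and BMP list, 15% of the Notch list and 9.52% of the axon guidance list. Over all 12347 genes the share was 7.59%, and each of these lists has few members.

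Neuronal structural genes were mostly high-low where they were members. Of 23 neuronal and synaptic genes, 6 were high-low, 1 low-high and 1 low-low, an opposite-sign share of 30.4%, against 7.59% of all genes. Other scalings gave 4 or 5 high-low genes in this list, and STX1A, the low-low gene, left its class under all 4 of them. GAP43 (ENSG00000172020.12, chromosome 3, 115623510 to 115721483), a protein of growing axons, had 1816, 2007, 956 and 928 counts after circRMST knockdown and 687 and 642 in shGFP. With SOX2 siRNAs it had 439.9, 482, 539.5 and 494 and with NKX2-1 siRNAs 609.7, 601, 849.9 and 843, against 1283, 1317 and 1178 in si-control. The neurofilament genes NEFM (1.15 and -0.69) and NEFL (0.90 and -0.44) went the same way, as did MAP2, KIF5C and VAMP2 with siRNA changes of -0.29 to -0.09. Of 28 neuroendocrine markers, 1 was high-low (SCG5), 1 low-high (INSM1) and 1 low-low (CHGB), a share of 7.14% in opposite classes, against 7.59% of all genes. Equal library totals gave 1 high-low and 3 low-high genes in this list.

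Of 15 genes of the non-neuroendocrine state, 4 were opposite-sign and 1 same-sign, and of 14 epithelial genes 3 and 3. The opposite-sign shares were 26.7% and 21.4%, against 7.59% of all 12347 genes. COL4A2, a basement membrane collagen, was high-low, with 688, 687, 802 and 769 counts after circRMST knockdown and 286 and 252 in shGFP, and 451, 393, 504 and 482 with SOX2 siRNAs and 420.0, 437, 458 and 507 with NKX2-1 siRNAs, against 771, 810.4 and 827 in si-control. ANXA2 (1.21 and -0.38) and S100A11 (0.78 and -0.47), both calcium-binding proteins, were high-low, while S100A6, a relative of S100A11, was low-low (-0.65 and -0.40). AJUBA, a LIM protein of the Hippo pathway, was high-low (2.28 and -0.60), and TEAD1, the DNA-binding partner of YAP, was low-high (-0.98 and 0.48). Among epithelial genes, SPINT1, CLDN4 and CLDN3 were high-low and JUP, DSP and KRT18 low-low. DSP left its class under all 4 other scalings, CLDN3 under 2 and CLDN4 under 1, and equal library totals left 1 high-low gene of this list.

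In the class I antigen presentation list, TAP2, a subunit of the peptide transporter, and ERAP1, the peptidase that trims peptides, were the high-low genes of 8. TAP2 had 249, 262, 245 and 302 counts after circRMST knockdown and 179 and 184 in shGFP, and 162, 184, 137 and 118 with SOX2 siRNAs and 193, 194, 206 and 228 with NKX2-1 siRNAs, against 336, 282 and 262 in si-control. Cholesterol genes gave 3 low-high (IDI1, EBP and FDPS) and 1 high-high (INSIG1) of 22, and FDPS left its class under TMM scaling. Subunits of oxidative phosphorylation gave 4 high-high genes and 0 opposite ones of 24, lysosome genes 1 high-high and 0 opposite of 22, and cytosolic ribosomal proteins 1 low-high gene (RPL13) of 28. Equal library totals gave 5 low-high ribosomal genes and quantile normalization 3, and RPL13 left its class under TMM and quantile normalization. Of 15 targets of p53, GADD45A was high-low (1.01 and -0.56), and CDKN1A, the cell cycle inhibitor p21, was high-high (1.21 and 0.41). BST2 was high-low and IFIH1 low-low among 12 interferon-stimulated genes. Of 13 mitochondrially encoded mRNAs, MT-CO1 and MT-CO2 were high-low and MT-ND6 low-low, and quantile normalization left 0 high-low genes there. Opposite-sign shares were 25% of the class I list, 15.4% of the mitochondrial mRNAs and 13.6% of the cholesterol list. They were 8.33% of the interferon list, 6.67% of the p53 list and 3.57% of the ribosomal list, against 7.59% of all 12347 genes.

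The same-sign classes are given for contrast. CXCL8 (ENSG00000169429.10, chromosome 4, 73740569 to 73743716), the neutrophil chemokine interleukin 8, led the low-low class, with 108, 114, 152 and 167 counts after circRMST knockdown and 459 and 429 in shGFP. In the siRNA table CXCL8 had 486, 504, 763 and 769 with SOX2 siRNAs and 191, 222, 893 and 1019 with NKX2-1 siRNAs, against 2382, 2256 and 2468 in si-control. The other low-low genes with the largest changes were NPHS1, ENPP3, SCN7A, ADGRB1 and CAMK2B, with log2 fold changes of -2.04 to -1.48 after circRMST knockdown. HHIP, an inhibitor that binds Hedgehog ligands, was among the leading high-high genes, with 944, 916, 1319 and 1363 counts after circRMST knockdown and 350.4 and 422 in shGFP, and 187, 220.5, 208 and 228 with SOX2 siRNAs and 325, 321, 415 and 507 with NKX2-1 siRNAs, against 139, 133 and 149 in si-control. RFK, which makes flavin mononucleotide from riboflavin, had log2 fold changes of 1.11 after circRMST knockdown and 0.79 with the siRNAs, and C3orf80, TMEM129 and GAS2L1 were leading genes of that class too.

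SOX2 and NKX2-1 siRNAs were compared with each other in one fit of the siRNA table, a contrast the choice of genes did not use. The choice still bears on it, since members moved to the same side of si-control with both sets. A set with larger changes will tend to lean further to that side among members. The shares of all genes are therefore not a matched comparison for them. Limma called 55.8% of the 16750 genes tested, and 64.3% of the 12347 genes with a mean of at least 50 in both tables, as different between the 2 sets of siRNAs. Of the 937 opposite-sign genes 556 were called, and of the 718 same-sign genes 415. Among high-low genes, 259 of 580 (44.7%) were lower with SOX2 siRNAs and 91 (15.7%) higher, against 30.3% and 34% of the 12347 genes. Among low-high genes, 168 of 357 (47.1%) were higher with SOX2 siRNAs and 38 (10.6%) lower. SOX2 siRNAs thus gave the larger of the 2 changes in most called members of either class. Called or not, they gave the larger change in 388 of 580 high-low and 261 of 357 low-high genes, against 7860 of all 12347 genes. The high-low share was thus close to that of all genes. Same-sign counts were 301 of 444 high-high and 189 of 274 low-low genes. The same-sign classes leaned the same way, with 133 of 274 low-low genes lower with SOX2 siRNAs and 177 of 444 high-high genes higher, so the lean was not confined to opposite signs. Equal library totals gave 318 lower and 58 higher among high-low genes, and 130 higher and 58 lower among low-high genes.

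The opposite-sign genes with the largest differences in favour of lower SOX2 siRNA values were CDC42EP1, FAM83A, BEST1 and CLU. CDC42EP1 had 45.6, 28.3, 39.7 and 44.3 counts with SOX2 siRNAs and 207, 256, 123 and 132 with NKX2-1 siRNAs, a difference of -2.11 ± 0.13 SE on the log2 scale (limma adjusted p = 1.23e-13). All 4 SOX2 libraries lay below all 4 NKX2-1 libraries. CLU (ENSG00000120885.20, chromosome 8, 27596917 to 27614700), the extracellular chaperone clusterin, had 109, 105, 170.5 and 162 counts with SOX2 siRNAs and 359, 339, 351 and 425 with NKX2-1 siRNAs, a difference of -1.45 ± 0.08 SE (limma adjusted p = 1.02e-14). After circRMST knockdown CLU had 3259, 3313, 1042 and 1005 counts, against 188 and 297 in shGFP.

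Differences the other way were largest for ZNF469, DACT1, LINC01508 and BMP2. ZNF469 had 466, 359.7, 395 and 385 counts with SOX2 siRNAs and 130.2, 131, 160.1 and 127 with NKX2-1 siRNAs, a difference of 1.54 ± 0.11 SE (limma adjusted p = 3.18e-12). In DACT1 the difference was 1.47 ± 0.09 SE (limma adjusted p = 8.80e-14), and in BMP2 it was 1.03 ± 0.04 SE (limma adjusted p = 2.15e-17). LINC01508, a non-coding gene, was high-low, so here its higher value with SOX2 siRNAs is the smaller change, with a difference of 1.20 ± 0.16 SE (limma adjusted p = 4.09e-07).

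**Figure D5:**
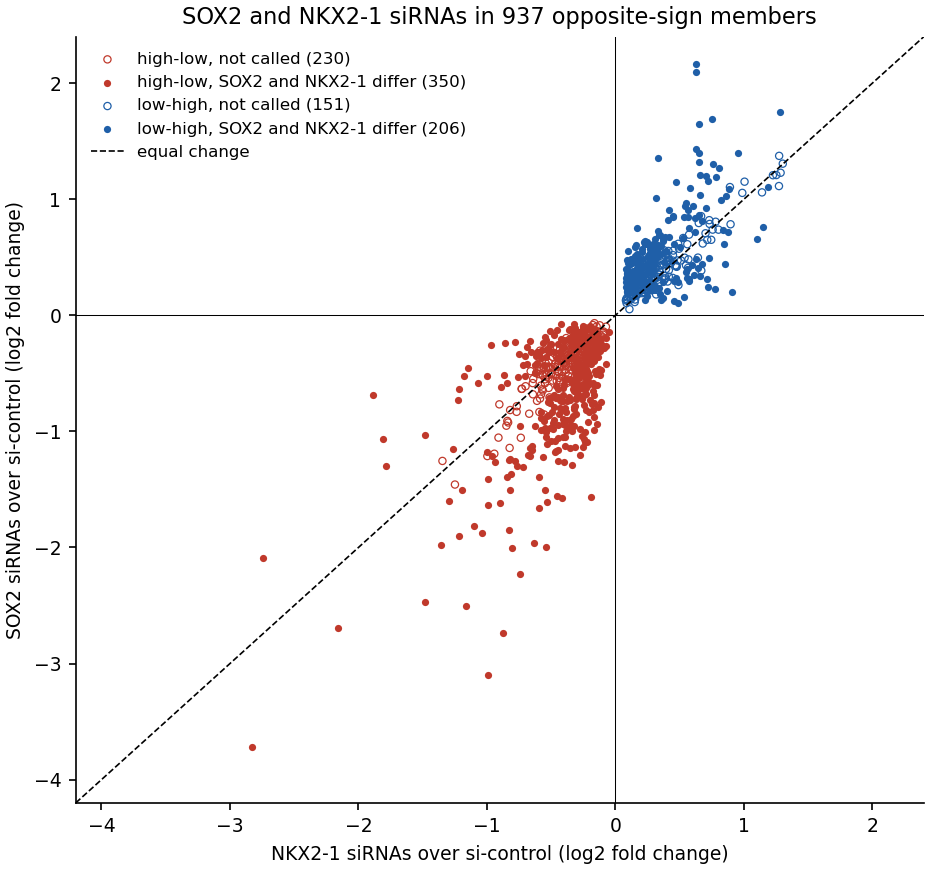
Log2 fold change over si-control with NKX2-1 siRNAs (horizontal axis) and with SOX2 siRNAs (vertical axis) for the 580 high-low (red) and 357 low-high (blue) genes. Filled points are the 350 and 206 genes called different between the siRNAs by limma, and the dashed line marks equal changes. More filled red points lie below the line than above it, and more filled blue points above it than below.

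The 2 circRMST shRNAs were compared in the same way and with the same limit, since members moved to the same side of shGFP with both. Limma called 19.1% of 19068 genes different between shRNA 1 and shRNA 2 (10.9% higher with shRNA 1 and 8.2% lower), and 26.7% of the 12347 genes. Of the 937 opposite-sign genes 309 were called, and of the 718 same-sign genes 171. Among high-low genes, 183 of 580 (31.6%) were higher with shRNA 1 and 22 (3.79%) lower, against 15.6% and 11.1% of the 12347 genes. Among low-high genes, 76 of 357 (21.3%) were lower with shRNA 1 and 28 (7.84%) higher. In both classes shRNA 1 gave the larger change more often where the shRNAs differed. Leaving out 1 of the 4 circRMST libraries at a time gave 207 to 230 called opposite-sign genes. Without replicate 1 of shRNA 1 the calls over all genes numbered 2266, and without replicate 1 of shRNA 2 they numbered 2230, against 3639 with all libraries. With no filter on low values 1325 genes were called, 150 of them opposite-sign.

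CLU had the largest difference of a high-low gene, 1.68 ± 0.13 SE on the log2 scale (limma adjusted p = 2.50e-09), with its first 2 circRMST values from shRNA 1. FAM83A differed by 1.57 ± 0.27 SE (limma adjusted p = 2.10e-04) and SMOX, which oxidises spermine, by 1.53 ± 0.22 SE (limma adjusted p = 1.90e-05). In the low-high class COLCA1 differed by -1.06 ± 0.06 SE (limma adjusted p = 2.07e-11), RASSF6 by -1.01 ± 0.14 SE (limma adjusted p = 2.04e-05) and SSNA1 by -0.90 ± 0.15 SE (limma adjusted p = 1.18e-04). GAP43 (difference 1.02 ± 0.09 SE, limma adjusted p = 1.13e-08) and NEFM (1.15 ± 0.08 SE, limma adjusted p = 1.06e-09) were both higher with shRNA 1 than with shRNA 2. TNFRSF9 differed by -0.15 ± 0.16 SE (limma adjusted p = 0.589) and BEST1 by 0.19 ± 0.12 SE (limma adjusted p = 0.3), and neither passed.

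The classes were also described by properties the rule did not use. Genes with a RefSeq entry were protein-coding in 98.2% of the high-low and 96.8% of the low-high class, against 94.0% of all 12347 genes. Their median genomic span was 47.3 kb in the high-low, 26.4 kb in the low-high, 28.5 kb in the high-high and 36.7 kb in the low-low class, against 32.2 kb over all genes. In promoter windows, searched for each motif on both strands without regard to overlap with another, and found for 79.0% of high-low and 81.5% of low-high genes, the SOX core ACAATGG occurred in 0.437% of high-low and 2.06% of low-high genes, against 1.79% of all genes with a window. The NKX2-1 core CTCAAG occurred in 8.52% and 11.7%, against 10.0%, and TGATGNAA in 3.28% and 1.03%, against 1.63%. The sterol element core TCACNCCAC occurred in 0.873% and 0.344%, against 1.01%. Several of these shares rest on few genes, with the SOX core in 2 of 458 high-low and 6 of 291 low-high genes. TGATGNAA was in 15 and 3 of the same genes and the sterol core in 4 and 1. These shares count letters in windows of 300 bases and say nothing of binding.

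The genes nearest the limit of 50 normalised counts were the following. Just inside it were PRORSD1P (high-high, mean 50.4 in the lower table) and PDZD7 (low-low, mean 50.8). Just outside were HHAT, which would be high-low with a mean of 49.4 and log2 fold changes of 1.08 and -1.65, and PSMB9, which would be low-low with a mean of 49.1 and log2 fold changes of -0.71 and -1.77.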

How the data were processed

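RNA sequencing of 17 SHP77 libraries was used, 6 with shRNAs (1 µg RNA, stranded total RNA kit) and 11 with siRNAs (500 ng RNA, poly(A) kit), in read pairs of 150 bases, per the labels. The other 10 of 27 samples are ChIP-seq and were left aside. Deposited as signal values, the entries were normalised counts of genes, with shRNA and siRNA libraries in tables of their own. The submitters' processing notes name cutadapt 2.5, STAR 2.5.2b, DESeq2 and hg38 without their roles. Annotation, counting tool and use of strand are not given in the sources used here, so overlapping genes are uncertain. Values were whole multiples of a step in each column (100% within 0.05 reads), as counts divided by a size factor of each library would be, which gave whole reads.

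A symbol other than the ID was found for 74.9% of shRNA table IDs and for 77.0% of siRNA table IDs. Positions, biotypes and promoter windows came from RefSeq (GRCh38.p14, the build of hg38), matched by symbol. Levels are normalised counts. Log2 fold changes and their SEs are from limma 3.58.1 (R 4.3.3) on log2 of the normalised count plus 1, all libraries of a table in the fit, a mean per reagent and eBayes with trend, for genes with a mean of at least 10. Log2 fold changes of low genes are understated. The two-sided p-values were adjusted by the Benjamini-Hochberg method across every gene tested, with a threshold of 0.05. The method was tested on simulated data. Alternatives were other scalings, filters, pseudocounts, edgeR 4.0.16 and DESeq2 1.42.0 on the recovered reads, and leaving out each library. Replicates are termed biological by the submitters with no word on their source, so p-values measure the spread between these libraries.

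The members, gene lists and tests were chosen with earlier results of these data known. The genes named are the targeted genes, the 8 genes of each opposite class and 6 of each same-sign class with the largest smaller change and a symbol, up to 3 opposite and 2 same-sign genes of each list, the 4 largest SOX2 minus NKX2-1 differences and the 3 largest shRNA differences in each direction, and 2 genes on each side of the limit of 50. Further genes of the lists were named after their values were seen, and some genes that the rule covers are not reported here.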

Additional observations from a re-analysis of the deposited data

Results flagged for a closer look

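Of 93 groups of 4 libraries examined for a single library far from the others, 2 stood out, where chance gives about 1 in 20 groups. TNFRSF9 had 361 normalised counts in the second library of circRMST shRNA 1, against 428 to 439 in the other 3 circRMST libraries, and remained far above both shGFP libraries. ZNF469 had 160.1 counts in the first library of NKX2-1 siRNA 2, against 127 to 131 in the other 3 NKX2-1 siRNA libraries, and all 4 lay above si-control.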

How the results depend on the processing

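Opposite-sign genes outnumbered same-sign genes under every filter, scaling and library choice tried, with 53.4 to 61.4% of members opposite. Judged by the 4 SOX2 siRNA libraries alone, 2452 genes were opposite and 2039 the same, and by the 4 NKX2-1 libraries alone 1697 and 1425, since fewer libraries had to clear the controls. A change of at least 1.5-fold in both tables left 158 and 105, and limma calls in both tables gave 2558 and 2017. Leaving out 1 library at a time gave 963 to 1084 opposite and 740 to 841 same-sign genes. Leaving out the 2 deepest siRNA libraries, a choice made after seeing the data, gave 1087 and 822. SOX2 minus NKX2-1 siRNA calls numbered 9354, of which 4668 were higher, and equal library totals gave 3716 higher and 5469 lower. Leaving out 1 library at a time gave 8551 to 9296 of these calls. The shRNA 1 minus shRNA 2 calls numbered 3639 and fell to 1325 without a filter on low values, with 150 opposite-sign and 65 same-sign genes called, with 41686 genes then tested. Leaving out 1 library gave 2230 to 3129 of these calls, 207 to 287 opposite-sign and 98 to 153 same-sign, with fewer samples in the fit. With a replicate block the calls were 9087 (524 opposite-sign, 393 same-sign) and 3484 (301 and 164). Deviations of same-numbered libraries correlated at -0.35 between SOX2 siRNA 1 and NKX2-1 siRNA 1 and between -0.13 and 0.10 in the other pairs of groups, which did not pair the samples by number. Exchanging the numbers of SOX2 siRNA 1, chosen after seeing the data, gave 9520 calls. Of the other recomputed values, 1307 stayed within the spread between replicates or within 1.5 times a count and 53 moved, with 0 reversed. Few reads limit the precision of genes such as FAM83A in shGFP.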
